A study of Rattus norvegicus with 18 samples.

Results

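The genes described here encode 10 proteins that fold, stabilise or retain secretory proteins in the endoplasmic reticulum (ER): Hspa5, Dnajb11, Sdf2l1, Hyou1, Hsp90b1, Pdia4, Pdia5, Calr, Creld2 and Manf. They were chosen by name, as ER folding genes of the kind that the transcription factors ATF6 and XBP1 control. The choice was made with earlier results of these data known, so the counts of members given below are descriptions. They are 10 of the 14217 genes measured, and 11 probe sets carried their symbols. Each gene was read from the probe set of its symbol with the highest mean signal. Hyou1 was the member with a further probe set, which lay at 3.9 to 4.6 on all arrays, below the median probe set at 5.43, and was not used.

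Liver RNA was measured on Affymetrix arrays in adult male Sprague Dawley rats after 8 weeks of feeding and an overnight fast. The HFD+PE rats received a high fat diet and, at a daily dose of 150 mg per kg, an extract of pomegranate skin (PE), the HFD rats received a high fat diet, and the chow rats received chow. All groups shared the strain, the sex and the fast, and none carried a genetic change by the labels. Each group had 6 arrays labelled as biological replicates. In 1 pair of each group, HFD+PE 3 and 4, HFD 1 and 2, and chow 3 and 4, no probe set was over 2 log2 units apart, whereas every other pair of arrays had 18 to 109 such probe sets. The SD of the difference between 2 arrays was 0.117 to 0.26 in these pairs and 0.26 to 0.407 in the others. By that measure HFD+PE 3 and 4, at 0.26, did not stand apart from the other pairs. These 3 pairs were averaged and counted as 1 animal each, which left 5 animals per group.

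All values are log2 signals, so that a difference of 1 is a doubling. The deposited values carry 1 decimal, which sets the finest step that can be seen. A level belongs to its probe set and is compared between groups, never between genes. The arrays also fell into sets by the transcripts added as hybridization controls, whose mean was 12.35 to 12.92 on 5 arrays (2 HFD+PE, 0 HFD and 3 chow) and 11.4 to 11.84 on the other 13. The liver label held: of 11 measured hepatocyte markers, 10 had mean signals at percentile 99.1 or above of all genes, and the liver enzyme Tat was at percentile 87.2.

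The ER is where a hepatocyte folds albumin, clotting factors, apolipoproteins and the other proteins it secretes. When unfolded proteins build up there, the sensors ATF6, IRE1 and PERK start the unfolded protein response. Active ATF6, and the XBP1 made after IRE1 splices its mRNA, switch on chaperone genes through promoter elements that hold a CCAAT box, bound by NF-Y, beside a CCACG sequence. The liver's ER stress response is also known to vary with feeding and fasting.

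Those elements were looked for in the RefSeq promoter windows of the rat build GRCr8, which run from 250 bases before an annotated start to 50 after it. Of the 10 genes, 9 had at least 1 window; Manf is not in the table. The ER stress response element ERSE, which is CCAAT, 9 bases of any kind and CCACG, was present on either strand in 22 of 33469 windows (0.0657%). It was found in 4 of the 9 genes: Hspa5, Hsp90b1, Creld2 and Calr. The shorter ERSE-II, which is ATTGG, 1 base of any kind and CCACG, was in 17 windows (0.0508%) and in 2 of the 9 genes, Hyou1 and Dnajb11. Sdf2l1, Pdia4 and Pdia5 had no exact match to either in these windows. With at most 1 mismatch in its 10 fixed letters, an ERSE was in 471 windows (1.41%) and in 6 of the 9 genes, Pdia4 among them. The genes were chosen as the kind that ATF6 and XBP1 control, so these motif counts describe them and test nothing. The percentages are of windows, whereas the member counts are of genes. The following 3 promoters are shown because they hold the full ERSE in genes whose levels are described next. Each gives the 250 bases before the start on the gene's strand, with the ERSE in capitals, which reads on the opposite strand in Creld2 and at the second site of Hsp90b1.
Hspa5, chr3:38452766-38453015, plus strand: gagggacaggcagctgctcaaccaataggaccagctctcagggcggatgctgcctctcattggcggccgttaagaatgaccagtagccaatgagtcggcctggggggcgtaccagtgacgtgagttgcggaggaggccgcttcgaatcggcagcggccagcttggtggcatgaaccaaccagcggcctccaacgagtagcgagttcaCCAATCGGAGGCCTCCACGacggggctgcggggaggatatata
Hsp90b1, chr7:23012294-23012543, minus strand: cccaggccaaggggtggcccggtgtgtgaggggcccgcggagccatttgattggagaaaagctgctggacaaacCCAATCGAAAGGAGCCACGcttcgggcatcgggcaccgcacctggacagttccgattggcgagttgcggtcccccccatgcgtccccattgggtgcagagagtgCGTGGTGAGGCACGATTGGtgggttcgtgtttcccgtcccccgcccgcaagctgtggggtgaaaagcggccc
Creld2, chr7:121789134-121789383, plus strand: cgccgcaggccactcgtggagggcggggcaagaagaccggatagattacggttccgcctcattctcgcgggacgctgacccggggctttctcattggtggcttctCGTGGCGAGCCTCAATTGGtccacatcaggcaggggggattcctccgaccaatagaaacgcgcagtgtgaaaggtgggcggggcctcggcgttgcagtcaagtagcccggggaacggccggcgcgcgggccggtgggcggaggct

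The matches varied in their spacer and in their place. With the start site as base 0, the first base of the match nearest the start lay at -43 in Hspa5, at -72 in Hsp90b1, at -145 in Creld2 and at -232 in Calr. Hsp90b1 held a further match at -176. In Hyou1, which had 2 overlapping windows, the ERSE-II matches lay at -188 and -88 in the upstream window, and that at -188 overlapped the window's UPRE, spelled TGACGTGG, a motif in 199 of the 33469 windows (0.595%). In Dnajb11 the ERSE-II ended on the start site itself. The plain CCAAT box, in 12549 windows (37.5%), was in 8 of the 9 genes and was missing from the window of Pdia5. The matches are set out along their own strand, with the fixed letters in capitals, to show how alike they are across genes.
Hspa5 ERSE, chr3:38452973-38452991: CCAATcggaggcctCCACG
Hsp90b1 ERSE, far site, chr7:23012451-23012469: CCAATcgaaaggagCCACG
Hsp90b1 ERSE, near site, chr7:23012347-23012365: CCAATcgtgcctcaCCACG
Creld2 ERSE, chr7:121789239-121789257: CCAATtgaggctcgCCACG
Calr ERSE, chr19:40213135-40213153: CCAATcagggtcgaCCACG
Hyou1 ERSE-II, far site, chr8:53602694-53602704: ATTGGcCCACG
Hyou1 ERSE-II, near site, chr8:53602794-53602804: ATTGGgCCACG
Dnajb11 ERSE-II, chr11:91672800-91672810: ATTGGcCCACG

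**Figure D1:**
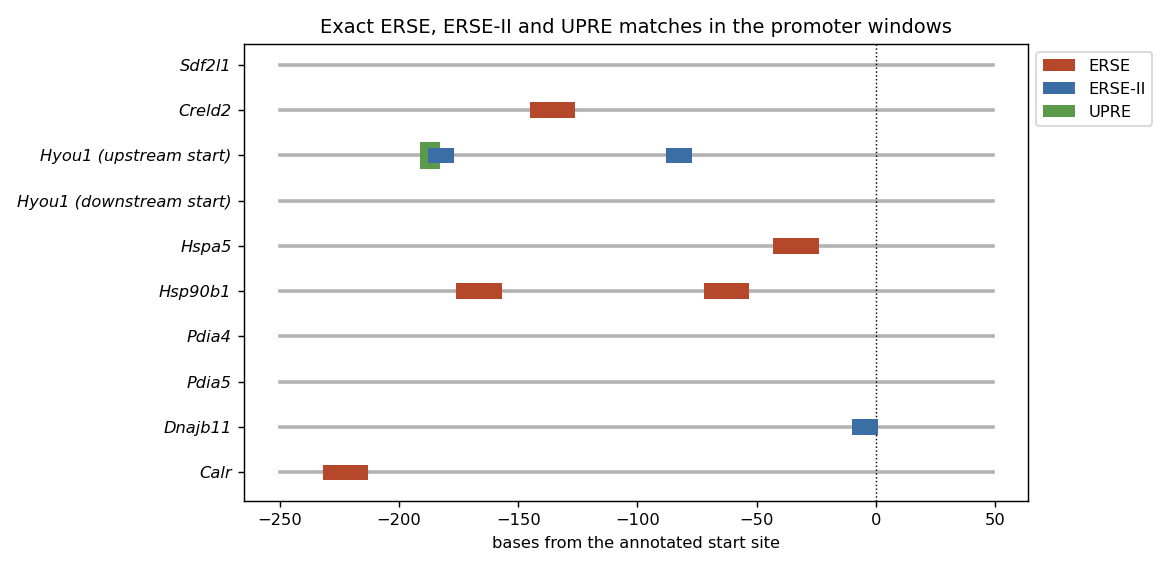
Position of exact matches to ERSE, ERSE-II and UPRE on either strand, in bases from the annotated start, in each promoter window of the ER chaperone genes. Grey lines are the windows; 4 genes hold an ERSE, 2 hold an ERSE-II, and Sdf2l1, Pdia4 and Pdia5 hold no exact match.

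HFD was set against chow to ask how the high fat diet alone related to liver gene expression. On HFD, 9 of the 10 chaperone genes were lower than on chow (46.6% of all genes were), and the tenth, Pdia5, had equal means. The median change of the 10 was -0.40, against 0.00 over all genes. Sdf2l1 and Creld2 were lowest relative to chow, at 0.529 and 0.547 of the chow signal, while Hsp90b1, Pdia4 and Calr had changes of -0.32, -0.30 and -0.25. No member passed limma's test after Benjamini-Hochberg adjustment over all 14217 genes, and neither did any other gene (0.0%). At an unadjusted p under 0.05, 8 of the 10 were lower, beside 508 of all 14217 genes (3.57%). In whole liver RNA, fewer cells of a type and less RNA per cell cannot be told apart.

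HFD+PE was set against chow as the extract and the diet combined. Here all 10 genes were lower (45.6% of all genes were), with a median of -0.55, against 0.01 over all genes. The 10 changes ran between -1.05 in Sdf2l1 and -0.33 in Calr. In this comparison too 0 of the 14217 genes (0.0%) passed the adjusted test. The smallest adjusted p in limma was 0.104, which Hyou1 and Dnajb11 shared with genes outside the 10. By p, Hyou1 ranked 3 and Dnajb11 22 of all genes. All 10 were lower at an unadjusted p under 0.05, beside 731 of all genes (5.14%). The comparison uses the same chow animals as the one before.

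HFD+PE was set against HFD to ask what the extract added to the diet. All 10 genes were lower here as well (46.6% of all genes were), but by less, with a median of -0.13 against 0.00 over all genes. Without HFD+PE 6 the median was -0.03, without HFD+PE 1 it was -0.24 and without HFD 4 it was -0.20. No gene of the 14217 passed (0.0%), and every member's adjusted p was 0.993. Pdia5 and Hyou1 were the 2 members with an unadjusted p under 0.05, beside 151 lower genes of 14217 (1.06%). The count was 1 without HFD 3, without HFD 5, without HFD+PE 5 or without HFD+PE 6. This comparison shares its HFD animals with the first and its HFD+PE animals with the second.

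With HFD and HFD+PE animals joined in 1 comparison against chow, all 10 genes were lower (46.3% of all genes were), with a median of -0.46, against 0.00 over all genes. All 10 had an unadjusted p under 0.05, beside 807 lower genes of 14217 (5.68%). The smallest adjusted p among them was 0.123 in limma. In the test for any difference between the 3 groups, a moderated F test, the smallest among the 10 was 0.23, and 0 of 14217 genes passed (0.0%). Those p-values depended on how the array pairs were counted: with all 18 arrays as separate animals, 8 members passed in HFD+PE against chow, where 145 of all genes did (1.02%). Without HFD+PE 1, which was the highest HFD+PE animal, alone or tied, in 8 of the 10 genes, Sdf2l1, Creld2 and Dnajb11 passed in the combined comparison with adjusted p between 0.046 and 0.0498 in limma, where 11 of all genes did (0.0774%).

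**Figure D2:**
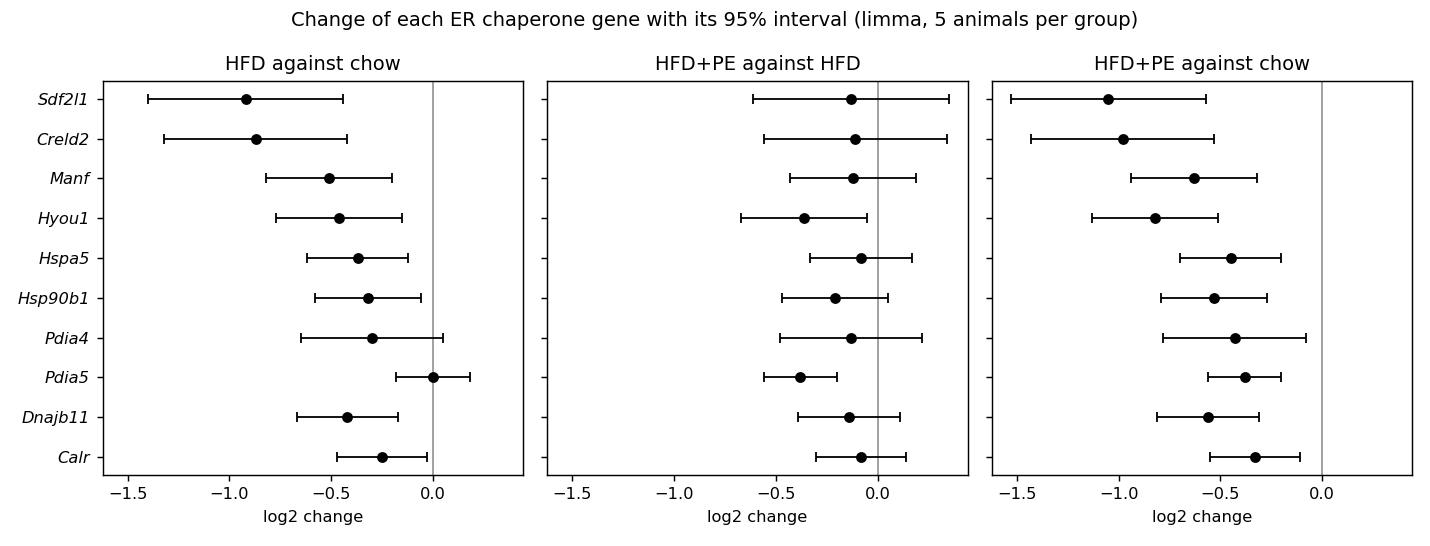
Change in log2 signal of each ER chaperone gene in 3 comparisons, as points with 95% intervals in limma over 5 animals per group. Of the 10 intervals, 8 lie below 0 in HFD against chow, 10 in HFD+PE against chow, and 2 (Hyou1 and Pdia5) in HFD+PE against HFD.

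Hspa5 encodes BiP, the ER's HSP70, which binds exposed hydrophobic stretches of new proteins and holds the stress sensors inactive. Its log2 signals were 12.4, 12.3, 12.5, 12.2 and 12.1 in the 5 HFD+PE animals, 12.5, 12.3, 12.1, 12.6 and 12.4 in the HFD animals, and 12.9, 12.9, 12.95, 12.6 and 12.4 in the chow animals. The 3 highest chow animals stood above every other animal, but the lowest chow animal lay within the range of both other groups. The change was -0.45 (SE 0.12) in HFD+PE against chow and -0.37 (SE 0.12) in HFD against chow, with adjusted p of 0.16 and 0.558 in limma.

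Dnajb11 encodes a DnaJ co-chaperone, ERdj3, that delivers unfolded proteins to BiP and stimulates its ATPase. Its signals were 9.6, 9.4, 9.3, 9.2 and 8.9 in HFD+PE animals, 9.5, 9.5, 9.2, 9.6 and 9.3 in HFD animals, and 9.9, 9.9, 9.9, 9.9 and 9.6 in chow animals. Of the chow animals 4 shared the value 9.9, and chow 6 equalled the highest animal of each other group, so that the groups touched at 9.6. The change was -0.56 (SE 0.12, adjusted p = 0.104 in limma) in HFD+PE against chow and -0.42 (SE 0.12, adjusted p = 0.542) in HFD against chow.

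Sdf2l1 encodes a small ER protein that partners with DnaJ co-chaperones of BiP and keeps substrates soluble. Its signals were 9.7, 9.5, 9.0, 8.4 and 8.6 in HFD+PE animals, 9.45, 9.3, 8.7, 9.4 and 9.0 in HFD animals, and 10.2, 10.3, 10.35, 10 and 9.6 in chow animals. Every HFD animal lay below every chow animal. In HFD+PE the spread was wider than in the other groups, 9.04 ± 0.56 against 9.17 ± 0.32 in HFD and 10.09 ± 0.30 in chow (SD, n = 5 each), and its highest animal lay just above the lowest chow animal. The change was -1.05 (SE 0.23, adjusted p = 0.107 in limma) in HFD+PE against chow, or 0.483 of the chow signal. It was -0.92 (SE 0.23, adjusted p = 0.426) in HFD against chow.

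Hyou1 encodes GRP170, an HSP110-type protein that exchanges the nucleotide on BiP. Its signals were 7.1, 7.1, 6.95, 6.5 and 6.5 in HFD+PE animals, 7.25, 7.3, 7.0, 7.3 and 7.1 in HFD animals, and 7.7, 7.6, 7.95, 7.8 and 7.2 in chow animals. Every HFD+PE animal lay below every chow animal, the HFD animals were between the other groups, and HFD overlapped each of them. The group means were 6.83 ± 0.31 in HFD+PE, 7.19 ± 0.13 in HFD and 7.65 ± 0.28 in chow (SD, n = 5 each). Against chow the change in HFD+PE was -0.82 (SE 0.15, adjusted p = 0.104 in limma), which ranked 3 of all genes by p. Against HFD it was -0.36 (SE 0.15, 95% interval -0.67 to -0.05, adjusted p = 0.993). In HFD against chow it was -0.46 (SE 0.15, adjusted p = 0.558). Without HFD+PE 3-4, the change in HFD+PE against chow passed at an adjusted p of 0.0414, where 0.183% of all genes passed.

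Hsp90b1 encodes GRP94, the ER's HSP90, whose clients include integrins and Toll-like receptors. Its signals were 12.4, 12.1, 11.8, 11.8 and 11.8 in HFD+PE animals, 12.25, 12.3, 12.2, 12.3 and 11.9 in HFD animals, and 12.7, 12.4, 12.65, 12.4 and 12.4 in chow animals. All HFD animals lay below all chow animals, though by only 0.1 at the nearest point, while HFD+PE 1 reached the lowest chow value. The change was -0.53 (SE 0.12, adjusted p = 0.111 in limma) in HFD+PE against chow and -0.32 (SE 0.12, adjusted p = 0.572) in HFD against chow.

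**Figure D3:**
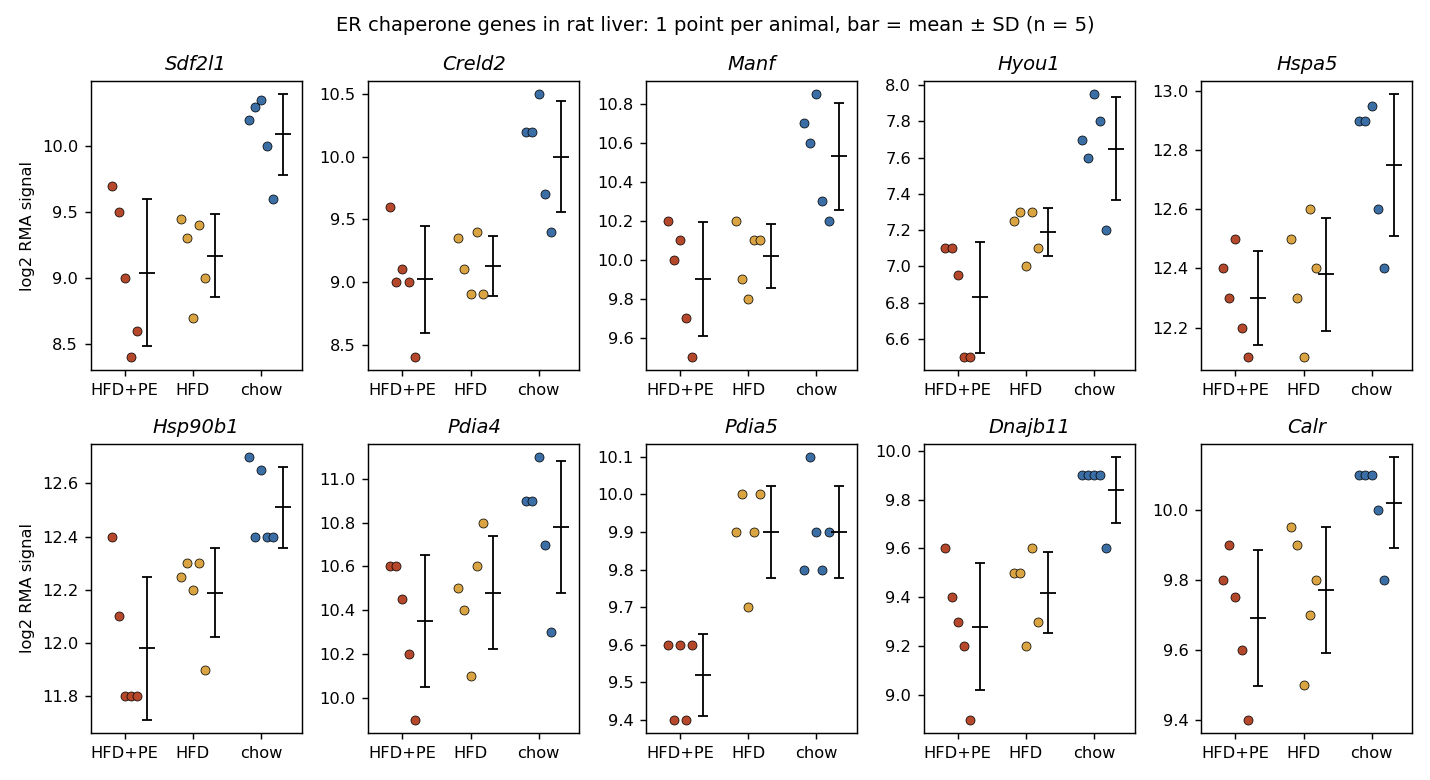
Log2 RMA signal of each ER chaperone gene in every animal of the HFD+PE, HFD and chow groups, with the group mean and SD as bars (n = 5 animals each; axes differ and do not start at 0). Chow stands highest in 9 of the 10 genes, while in Pdia5 the HFD and chow means are equal and HFD+PE is lower.

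Pdia5 and Pdia4 encode protein disulfide isomerases, which form and rearrange disulfide bonds in proteins that enter the secretory pathway. Pdia5 had signals of 9.6, 9.4, 9.6, 9.4 and 9.6 in HFD+PE animals, 9.9, 10, 9.7, 9.9 and 10 in HFD animals, and 9.8, 10.1, 9.9, 9.8 and 9.9 in chow animals. All HFD+PE animals lay below all animals of both other groups, and HFD and chow overlapped. The change in HFD+PE was -0.38 (SE 0.08) against HFD and -0.38 (SE 0.08) against chow, and the change in HFD against chow was 0.00 (95% interval -0.18 to 0.18). Against HFD its p of 0.000298 was the smallest of all 14217 genes in limma, yet the adjusted p was 0.993. Against chow the adjusted p was 0.108.

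Pdia4 was highest in chow, unlike Pdia5. It ran between 9.9 and 10.6 in HFD+PE, 10.1 and 10.8 in HFD, and 10.3 and 11.1 in chow, with overlap between all groups. Its change was -0.43 (SE 0.16, adjusted p = 0.324 in limma) in HFD+PE against chow and -0.30 (SE 0.16, adjusted p = 0.69) in HFD against chow. Calr encodes calreticulin, a calcium-binding lectin chaperone that holds glycoproteins until they are folded. It ran between 9.4 and 9.9 in HFD+PE, 9.5 and 9.95 in HFD, and 9.8 and 10.1 in chow. It had the smallest difference of the 10 from chow in HFD+PE, at -0.33 (SE 0.11, adjusted p = 0.238 in limma), and its groups overlapped.

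Creld2 and Manf are ER stress-inducible proteins that can also be secreted. Creld2 carries thioredoxin-like motifs, and Manf binds BiP. Creld2 had signals of 9.6, 9.0, 9.1, 9.0 and 8.4 in HFD+PE animals, 9.35, 9.1, 8.9, 9.4 and 8.9 in HFD animals, and 10.2, 10.2, 10.5, 9.7 and 9.4 in chow animals. The lowest chow animal equalled the highest HFD animal, and HFD+PE 1 lay above it. The change was -0.98 (SE 0.21, adjusted p = 0.107 in limma) in HFD+PE against chow and -0.87 (SE 0.21, adjusted p = 0.426) in HFD against chow.

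Manf had signals of 10.2, 10, 10.1, 9.7 and 9.5 in HFD+PE animals, 10.2, 9.9, 9.8, 10.1 and 10.1 in HFD animals, and 10.7, 10.6, 10.85, 10.3 and 10.2 in chow animals. Its lowest chow animal equalled the highest animal of each other group, as in Dnajb11. The change was -0.63 (SE 0.14, adjusted p = 0.111 in limma) in HFD+PE against chow and -0.51 (SE 0.14, adjusted p = 0.542) in HFD against chow. For HFD+PE against HFD, the 95% intervals were -0.61 to 0.35 for Sdf2l1, -0.56 to 0.34 for Creld2, and -0.43 to 0.19 for Manf. The intervals of Hspa5 (-0.33 to 0.17), Dnajb11 (-0.39 to 0.11), Hsp90b1 (-0.47 to 0.05), Pdia4 (-0.48 to 0.22) and Calr (-0.30 to 0.14) also spanned 0, so that a further change in either direction of up to those sizes was within the error.

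With both diets joined, 0 members lay wholly below chow, beside 8 of all genes (0.0563%). Without overlap between the groups, 2 members were lower in HFD against chow (Sdf2l1 and Hsp90b1), beside 30 of all genes (0.211%). In HFD+PE against chow there were 2 (Hyou1 and Pdia5), beside 104 (0.732%), and in HFD+PE against HFD there was 1 (Pdia5), beside 8 (0.0563%). Chow 6 was lowest or tied lowest in its group for 9 of the 10 genes, and without it the median change was -0.47 in HFD against chow and -0.59 in HFD+PE against chow. HFD+PE 6 was lowest or tied in 8 genes and HFD 4 in 9. At the other end HFD+PE 1 and chow 3-4 were highest or tied in 8 genes each.

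Most of the 10 genes varied alike from animal to animal. Over the 15 animals, each gene's correlation with the mean of the other 9 was 0.83 to 0.957, except for Pdia5 at 0.537. After the group means had been subtracted, it was still 0.825 to 0.919 in 8 genes, against 0.569 in Hsp90b1 and 0.194 in Pdia5. The genes are read from the same arrays and share their normalization, and the values are descriptions. Of the 14207 other genes, the ones most like the members' mean were Isyna1 (r = 0.903), Rtn4rl2 (0.895), Edem2 (0.894), Erp29 (0.886), Nans (0.88), Letm1 (0.875), Lmf1 (0.871) and Mvb12a (0.869), where the median gene had -0.013. After subtraction of group means they were Coro1b (0.891), Cfap20 (0.887), Atp6v1g1 (0.849), Edem2 (0.831), Chchd6 (0.828), Mpv17l2 (0.826), Dad1 (0.823) and Coq5 (0.82), with a median gene at 0.007. Edem2 was named by both.

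The hybridization-control sets were unevenly spread over the groups, so the members were also compared within them. Among the animals of the low set (4 HFD+PE, 5 HFD and 3 chow), the median change of the 10 was -0.60 in HFD+PE against chow, -0.36 in HFD against chow and -0.25 in HFD+PE against HFD, with 10, 9 and 10 genes lower. Within the high set, 2 HFD+PE and 3 chow arrays could be compared, and all 10 genes were lower in HFD+PE, by a median of -0.48 and a range of -0.92 to -0.33. The high set held no HFD array. The animals chow 3-4 and HFD+PE 3-4 had arrays in both sets, so the low-set and high-set comparisons share those animals. Within these averaged pairs, the high-set array minus the low-set array had a median member difference of 0.0 in each pair. The differences ran between -0.2 and 0.3 in chow 3-4 and between -0.2 and 0.2 in HFD+PE 3-4. With the control level as a covariate, 5 members instead of 8 were lower at an unadjusted p under 0.05 in HFD against chow, beside 2.83% of all genes. Their median change in that comparison was -0.27 with the covariate, instead of -0.40. With it the change was -0.15 for Hsp90b1, -0.18 for Pdia4, -0.33 for Manf and -0.53 for Creld2, instead of -0.32, -0.30, -0.51 and -0.87. All 10 values of HFD+PE against HFD were further below 0 with the covariate, among them -0.31 for Sdf2l1, -0.33 for Creld2, -0.32 for Hsp90b1 and -0.24 for Manf, instead of -0.13, -0.11, -0.21 and -0.12.

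The other folding enzymes of the ER lay mostly below chow too, by less. Of 31 measured, 27 were lower and 3 higher in HFD+PE against chow (median -0.10), and 28 were lower and 3 higher in HFD against chow (median -0.09). At an unadjusted p under 0.05, 4 and 5 of them were lower, beside 5.14% and 3.57% of all genes, and none passed after adjustment in limma. The members of the list with the smallest p over the 3 groups were Erp29, a thioredoxin-fold chaperone of secretory proteins, Pdia3, the disulfide isomerase that works with calreticulin, and the isomerase Pdia6. Their changes in HFD+PE against chow were -0.49 (SE 0.15) for Erp29, -0.27 (SE 0.09) for Pdia3 and -0.41 (SE 0.16) for Pdia6.

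The remaining steps of the secretory pathway had medians closer to 0 than the chaperones. Genes of ER-associated degradation, which extracts misfolded proteins for the proteasome, had a median of 0.01 over 19 genes in HFD+PE against chow, with 9 lower and 10 higher. In that list Syvn1, the ubiquitin ligase HRD1, was at -0.30 (SE 0.11) and Edem2, a mannosidase-like factor, at -0.25 (SE 0.09), whereas Herpud1, a stress-inducible part of the same ligase complex, was at 0.28 (SE 0.15). Translocation and N-glycosylation genes had a median of -0.08 over 26 genes, with 17 lower and 8 higher, the oligosaccharyltransferase subunits Rpn1 at -0.28 (SE 0.11) and Rpn2 at -0.18 (SE 0.14), and the translocon channel Sec61a1 at -0.21 (SE 0.10). ER-Golgi transport genes had a median of -0.04 over 20 genes, with 15 lower and 3 higher, the cargo receptors Surf4 at -0.21 (SE 0.09) and Lman1 at -0.14 (SE 0.13), and the coat subunit Copg1 at -0.22 (SE 0.09). In HFD+PE against HFD the medians of the 3 lists were 0.01, -0.04 and -0.02, and that of the other folding enzymes was -0.01. No gene of these lists passed after adjustment in limma.

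**Figure D4:**
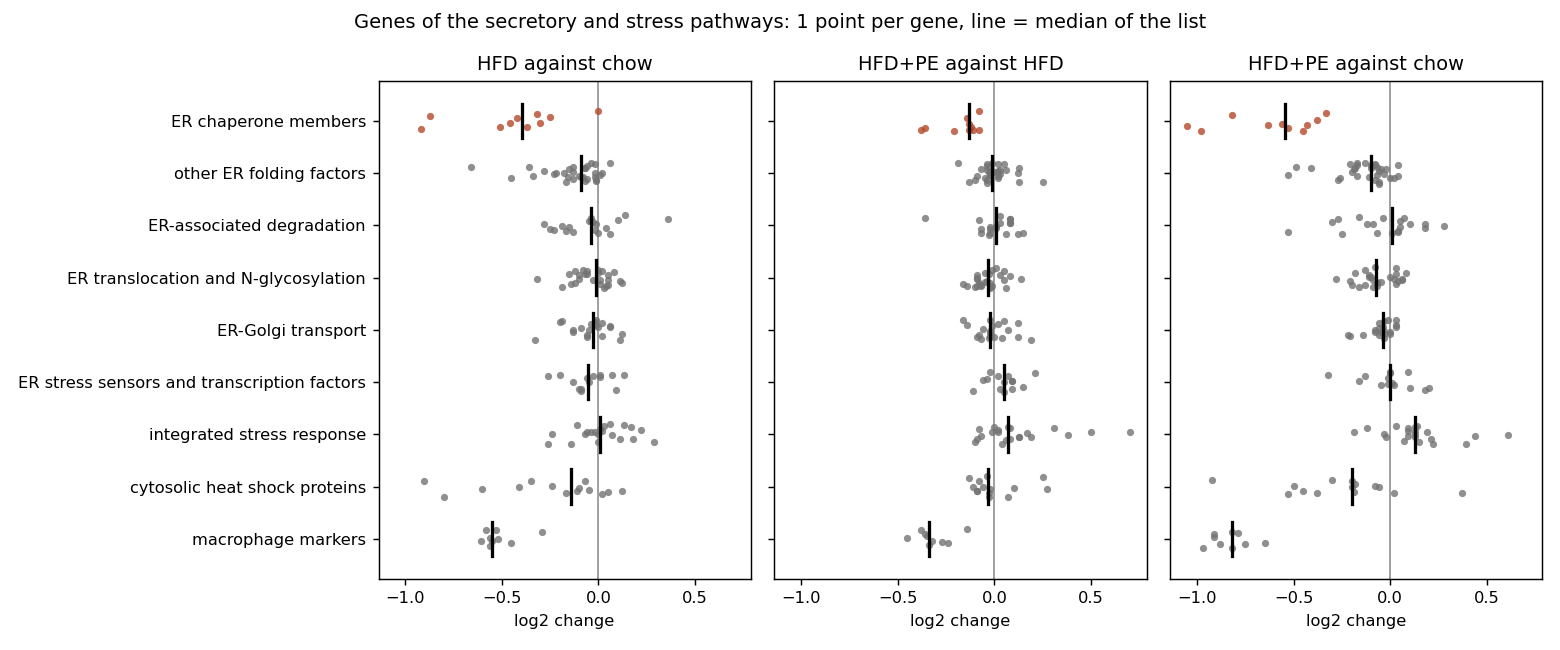
Change in log2 signal of every measured gene in the ER chaperone group, in 7 other secretory and stress lists and among macrophage markers, for 3 comparisons; each point is a gene and each black line a list's median. The ER chaperone and macrophage medians are the lowest in HFD against chow (-0.40 and -0.55) and in HFD+PE against chow (-0.55 and -0.82).

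The mRNAs of the transcription factors that act on these promoters were measured as well. Xbp1 was at 11.75 ± 0.43 in HFD+PE, 11.77 ± 0.44 in HFD and 11.76 ± 0.26 in chow (SD, n = 5 each), a change of -0.01 (SE 0.21) in HFD+PE against chow. Atf6 was at 0.02 (SE 0.08) in the same comparison. The arrays measure total mRNA of a gene, and neither XBP1 splicing nor ATF6 cleavage can be read from them. In the list of ER stress sensors and transcription factors, 6 genes were lower and 6 higher of 14 (median 0.00), among them the ER-bound factor Creb3l1 at -0.32 (SE 0.11), the protease Mbtps1, which cleaves ATF6, at 0.18 (SE 0.07), and the ER calcium regulator Wfs1 at 0.01 (SE 0.10).

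The integrated stress response, which PERK and other kinases can start and which acts through ATF4, lay on the other side of 0 in HFD+PE against chow. Of its 21 genes, 17 were higher and 4 lower there (median 0.13), where 7266 of all 14217 genes were higher. In HFD against chow 11 were higher and 8 lower (median 0.01), where 7088 of all genes were higher. Of the 21, 6 were below the median probe set. Atf4 itself was at 0.14 (SE 0.11) and Ddit3, which encodes CHOP, at 0.13 (SE 0.14) in HFD+PE against chow. The phosphatase subunit Ppp1r15b was at 0.22 (SE 0.11), the serine synthesis enzyme Phgdh at 0.39 (SE 0.22) and the cystine transporter Slc7a11 at 0.03 (SE 0.08). In HFD+PE the signals of Phgdh had a mean of 4.87, a median of 4.6 and a highest animal at 6.0, against a chow mean of 4.48. The group means of Phgdh and Slc7a11 were all below the median probe set. In HFD+PE against HFD, 15 of the 21 were higher and 5 lower (median 0.07), where 6996 of all genes were higher. Of these 21 genes 0 reached an unadjusted p under 0.05 in HFD+PE against chow, and 0 passed after adjustment in limma.

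Heat shock proteins of the cytosol, which answer to HSF1 and not to the ER sensors, were lower in part. Of 14, 12 were lower in HFD+PE against chow (median -0.20) and 11 in HFD against chow (median -0.14). At an unadjusted p under 0.05, 4 and 5 of the 14 were lower, beside 5.14% and 3.57% of all genes. Hsph1, the cytosolic HSP110, was at 9.0 ± 0.12 in HFD+PE, 9.02 ± 0.47 in HFD and 9.92 ± 0.26 in chow (SD, n = 5 each). Its change was -0.92 (SE 0.18, adjusted p = 0.104 in limma) in HFD+PE against chow. The HSP70-HSP90 adaptor Stip1 was at -0.45 (SE 0.11) and the HSP90 co-chaperone Chordc1 at -0.38 (SE 0.13).

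Genes outside the 10 with an ERSE or ERSE-II promoter had median changes near 0. In addition to the members, 32 gene symbols had a window with either motif, and 22 of them were measured. Of these, 10 were lower and 11 higher in HFD+PE against chow (median 0.00), and 14 were lower and 8 higher in HFD against chow (median -0.04). At an unadjusted p under 0.05, 3 of the 22 were lower in HFD+PE against chow, beside 5.14% of all genes. In HFD against chow 4 were, beside 3.57%, and with both diets joined against chow 5 were, beside 5.68%. In each of these comparisons the share of the 22 was above that of all genes. Examples with known ER roles are shown beside their motif, again with the fixed letters in capitals, since the first 4 hold the same element as Hspa5, Hsp90b1 and Creld2 and Herpud1 holds that of Hyou1 and Dnajb11.
Ero1b ERSE, chr17:92941458-92941476: CCAATgaggcgggaCCACG
Dnajc3 ERSE, chr15:102432534-102432552: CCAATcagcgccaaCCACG
Canx ERSE, chr10:35158069-35158087: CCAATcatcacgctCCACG
Xbp1 ERSE, chr14:84604558-84604576: CCAATcgcagacggCCACG
Herpud1 ERSE-II, chr19:10614821-10614831: ATTGGgCCACG

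Their changes differed widely. Ero1b, an oxidase that recharges disulfide isomerases, was at -0.53 in HFD+PE against chow and -0.66 in HFD against chow. Dnajc3, a BiP co-chaperone, was at -0.17 and -0.13, and Canx, the membrane-bound partner of calreticulin, at -0.11 and -0.07. Herpud1, with ERSE-II, was at 0.28 and 0.36. None of them passed after adjustment in limma.

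Macrophage markers and most stellate cell and matrix markers were lower than in chow, whereas endothelial, cholangiocyte and T cell markers were near 0 or mixed. Below the median probe set were 3 of 5 cholangiocyte and 6 of 6 T cell markers, which limits what their changes can show. All 9 measured macrophage markers were lower in HFD+PE against chow (median -0.82, 9 at an unadjusted p under 0.05, beside 5.14% of all genes). All 9 were lower in HFD against chow (median -0.55, 6 at that p, beside 3.57% of all genes). In HFD+PE against HFD all 9 were lower as well, with a median of -0.34 and 0 at that p. Their mean signal was 7.26 to 8.24 in HFD+PE animals, 7.71 to 8.57 in HFD animals and 8.30 to 9.36 in chow animals, and 1 of the 9 was below the median probe set. The complement subunits C1qa and C1qc were at -0.82 (SE 0.20) and -0.91 (SE 0.22) in HFD+PE against chow, and the Kupffer cell lectin Clec4f at -0.97 (SE 0.24). Stellate cell and matrix markers had a median of -0.35 in that comparison, with 9 of 10 lower and a range of -0.71 to 0.03. The mean signal of this list was 6.29 to 6.53 in HFD+PE, 6.30 to 6.65 in HFD and 6.69 to 6.87 in chow. Vim, an intermediate filament protein, was at -0.71 (SE 0.13) in HFD+PE against chow, Timp1, which inhibits matrix metalloproteinases, at -0.43 (SE 0.09), and the collagen I chain Col1a2 at -0.64 (SE 0.20). Hepatocyte markers had a median of 0.05 over 11 genes in HFD+PE against chow and 0.00 in HFD against chow. B cell and plasma cell markers, whose cells are rich in ER, were at 4.37 to 4.58 in HFD+PE, 4.47 to 4.73 in HFD and 4.62 to 4.67 in chow, with 5 of 6 below the median probe set. The part of these markers' cells in the chaperone result was not tested.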

How the data were processed

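Liver RNA was measured on 18 Affymetrix arrays. The submitters' processing notes name Affymetrix Expression Console and RMA, which corrects background, quantile-normalizes and summarizes probes, without versions. What the authors deposited are log2 signals of 31099 probe sets with 1 decimal. There is no sequencing depth; precision is set by 5 animals per group and by that rounding.

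After 57 control probe sets were left out, 20826 probe sets with 1 gene symbol in the platform annotation were kept, and symbols were updated through RefSeq gene identifiers. The brightest probe set stood for each of 14217 genes. Arrays of the 3 pairs with no probe set over 2 log2 units apart were averaged, an inference from the values. The tests used limma 3.58.1 under R 4.3.3 (lmFit with 1 mean per group, eBayes, two-sided), tested on simulated data, with Benjamini-Hochberg adjustment over all genes at 0.05. Nothing in the labels says more of the replicates than that they are biological.

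The 10 members and the 15 gene lists were chosen with earlier results of these data known. The lists hold the other ER folding factors, ER-associated degradation, translocation and N-glycosylation, ER-Golgi transport, ER stress sensors, the integrated stress response, cytosolic heat shock proteins and 8 sets of cell type markers. Of each list the text names the 3 genes with the smallest p of the F test, and in addition Xbp1, Atf6, Atf4 and Ddit3. The genes most like the members are the 8 with the highest Pearson correlation. Genes named beside their promoter motifs were chosen after their values were seen. Alternatives changed the counting of array pairs, a replicate block, the probe set rule, the filter on dim genes, the eBayes prior, the centring of arrays, the hybridization controls, the second number of the sample descriptions, whose meaning is not given, and each animal in turn. Motifs were searched on both strands in RefSeq promoter windows (GRCr8), which need not be the build behind the array's probes.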

Additional observations from a re-analysis of the deposited data

Results flagged for a closer look

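Of 30 combinations of a gene and a group, 2 held an animal that stood apart from the others of its group by Dixon's criterion for a gap within the range, which chance alone meets now and then. Hsp90b1 was at 11.9 in HFD 6, whereas the other HFD animals were at 12.2 to 12.3. Dnajb11 was at 9.6 in chow 6, whereas the other 4 chow animals were all at 9.9.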

How the results depend on the processing

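The median changes of the 10 genes stayed below 0 under every alternative run. With all 18 arrays as separate animals, the members that passed in limma were 8 in HFD+PE against chow (adjusted p 0.0148 to 0.0491), 6 in HFD and HFD+PE together against chow (0.0177 to 0.0385, beside 0.345% of all genes) and 5 in the F test (0.134% of all genes), against 0 each with pairs averaged. With a replicate block over the 18 arrays they were 6 (0.837% of all genes), 6 (0.317%) and 4 (0.204%). The numbers were not taken to pair the samples: over 18 pairs of same-numbered arrays, 6 for each 2 groups, deviations from the group means correlated at -0.305 to 0.189, and 5 of the 18 were best matched to their own number. For HFD+PE with chow these correlations were -0.037 to 0.189, with 5 of 6 above 0 and 4 of 6 best matched. Leaving out 1 animal at a time gave 0 to 1 members in HFD+PE against chow (Hyou1, without HFD+PE 3-4, where 0.183% of all genes passed), 0 to 3 in both diets against chow (without HFD+PE 1), and 0 to 0 in the other tests. Members lower at an unadjusted p under 0.05 were 5 instead of 8 in HFD against chow with the control level as a covariate. In HFD+PE against HFD they were 1 instead of 2 without the arrays with 1 as second description number, and 1 to 3 without 1 animal. With all animals, the shares of all genes lower at that p were 3.57% in HFD against chow and 1.06% in HFD+PE against HFD. They were 5.14% in HFD+PE against chow and 5.68% for both diets. These shares were not counted without 1 animal. The member counts without 1 animal ranged over 7 to 9 in HFD against chow, 9 to 10 in HFD+PE against chow and 9 to 10 for both diets. The medians ranged over -0.469 to -0.344 in HFD against chow, -0.238 to -0.025 in HFD+PE against HFD, -0.638 to -0.475 in HFD+PE against chow and -0.524 to -0.422 for both diets. In HFD+PE against HFD, Sdf2l1 ranged over -0.295 to 0.03 and Creld2 over -0.255 to 0.045, above 0 without HFD+PE 5 and without HFD+PE 6 in turn. The median of that comparison was -0.25 in the low control set and -0.27 with the covariate. Why these values differ was not tested.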

Other observations

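Further cell type markers were near 0 or mixed. Endothelial markers had a median change of -0.11 over 7 genes in HFD+PE against chow and -0.17 in HFD against chow. The lymphatic and sinusoidal receptor Lyve1 was at -0.39 (SE 0.14), the scavenger receptor Stab1 at 0.04 (SE 0.11) and the adhesion molecule Pecam1 at -0.26 (SE 0.13) in HFD+PE against chow. Cholangiocyte markers had a median of -0.03 over 5 genes, T cell markers 0.01 over 6, B cell and plasma cell markers -0.12 over 6, and pancreas acinar markers 0.09 over 8 in that comparison. Below the median probe set were 3 of the cholangiocyte, 6 of the T cell, 5 of the B cell and plasma cell and 7 of the pancreas acinar markers. Little can be read from the changes of genes that dim. The bile duct keratin Krt19 was at -0.69 (SE 0.23) the adhesion molecule Epcam at 0.27 (SE 0.12) and the keratin Krt7 at -0.10 (SE 0.11). The T cell receptor subunits Cd3d and Cd3e were at -0.04 (SE 0.10) and 0.15 (SE 0.12), and the coreceptor chain Cd8b at 0.06 (SE 0.10). The digestive enzyme genes Cpa1, Ctrb1 and Cela2a were at 0.15 (SE 0.08), -0.03 (SE 0.08) and -0.15 (SE 0.10). The immunoglobulin joining chain Jchain was at 6.21 ± 0.40 in HFD+PE, 6.49 ± 0.69 in HFD and 6.85 ± 0.43 in chow (SD, n = 5 each). The plasma cell genes Mzb1 and Tnfrsf17 were at -0.14 (SE 0.10) and -0.15 (SE 0.13) in HFD+PE against chow. Among hepatocyte markers, Cyp2e1, a cytochrome P450 induced by fat and fasting, was higher in every HFD+PE animal than in every chow animal, at 13.55 ± 0.13 in HFD+PE, 13.32 ± 0.25 in HFD and 12.92 ± 0.31 in chow (SD, n = 5 each). The protease inhibitor Serpina1 was at -0.03 (SE 0.07) and the aminotransferase Tat at 0.32 (SE 0.34) in HFD+PE against chow. No gene of these lists passed after adjustment over all genes in limma, and Cyp2e1 had an adjusted p of 0.108 in HFD+PE against chow.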
